A study of Homo sapiens with 4 samples.

Results

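Histone genes were followed by ribosome footprints, the short RNA fragments that translating ribosomes shield from RNase, in Hermes 4B cells. The members were taken by gene symbol: every gene of the deposited tables whose name begins as those of the linker histones H1, of H2A, H2B, H3 or H4, of their variants or of macroH2A. The rule found 70 of 14355 gene names. Of these, 58 bear the names of the replication-dependent genes (H1-1 to H1-5 and the H2AC, H2BC, H3C and H4C series) and 12 were counted as variants. Hermes 4B is an immortalised line of human melanocytes, the pigment cells of the skin, with the genotype given as WT. Cells were transfected with an siRNA against CDH3-AS1, an antisense noncoding RNA of the P-cadherin gene, or with a control siRNA, at 25 to 50 nM. All cells grew in medium with serum, the phorbol ester TPA, endothelin-1, cholera toxin and stem cell factor, and were harvested in cycloheximide, which holds ribosomes on the message, at 100 µg/mL. There were 4 libraries, 1 for each siRNA in each of 2 labelled batches. Whether the libraries of an siRNA came from separate cultures is not in the labels, so a p-value below covers the spread among 4 samples, possibly technical spread only.

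Histones package DNA. Pairs of H2A, H2B, H3 and H4 form the core that DNA wraps round, and H1 binds the DNA between cores. The replication-dependent genes lie in clusters, have no introns and are expressed in S phase, when new DNA must be packaged. Their messages end in a stem-loop that the protein SLBP binds, in place of a poly(A) tail. Variants such as H2AZ1 and H3-3B are made from ordinary polyadenylated messages, also outside S phase, and replace the canonical histones at particular places in the genome.

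By an NCBI RefSeq table of GRCh38.p14, in which 70 of 70 names matched, 52 members lie on chromosome 6, from 25726777 to 27893891. Another 6 lie together on chromosome 1, from 149782689 to 149887965, and the rest lie outside these clusters. RefSeq promoters were given for 63 members, 53 of them replication-dependent. In the 200 bases before the start, searched on both strands, TATAAA occurred in 58.5% of the replication-dependent and 40% of the variant promoters, against 8.92% of all 27305 promoters. CCAAT occurred in 88.7%, 60% and 28.9% of the same 3 sets. The octamer ATTTGCAT, the site of POU2F1 in H2B promoters, occurred in 39.6%, 10% and 1.32%, and in 82.4% of the replication-dependent H2B promoters. These are matches of letters, not measured sites.

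Promoters are shown for the genes on which the comparisons below turn: H3C3, the most densely occupied member, H2AC14 and its neighbour H2BC14, which start in opposite directions from 1 shared stretch and had unlike fold changes between batches, and H2AX and H2BC21, which stood near opposite ends of the range between batches. Capitals mark each TATAAA match, each CCAAT match, which reads as ATTGG from the other strand, and each octamer. No marked motif overlaps another within a window. Each sequence runs 5′ to 3′ along the gene and ends at the base before its start, in RefSeq's GRCh38.p14 (H3C3, chr6:26045184-26045383, plus strand; H2AC14, chr6:27814778-27814977, minus strand; H2BC14, chr6:27814822-27815021, plus strand; H2AX, chr11:119095466-119095665, minus strand; H2BC21, chr1:149886683-149886882, minus strand).
H3C3: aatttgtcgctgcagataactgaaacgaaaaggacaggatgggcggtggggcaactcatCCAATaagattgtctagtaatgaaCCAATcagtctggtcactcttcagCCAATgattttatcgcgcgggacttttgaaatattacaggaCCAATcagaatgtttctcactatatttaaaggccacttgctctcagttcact
H2AC14: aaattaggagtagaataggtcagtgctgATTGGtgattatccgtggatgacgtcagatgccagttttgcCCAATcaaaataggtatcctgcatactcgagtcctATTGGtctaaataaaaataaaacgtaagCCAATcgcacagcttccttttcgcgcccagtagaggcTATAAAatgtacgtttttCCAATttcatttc
H2BC14: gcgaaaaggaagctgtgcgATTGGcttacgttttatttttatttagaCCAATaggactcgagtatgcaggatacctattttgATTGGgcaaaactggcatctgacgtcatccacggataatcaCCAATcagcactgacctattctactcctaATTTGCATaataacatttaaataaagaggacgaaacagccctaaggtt
H2AX: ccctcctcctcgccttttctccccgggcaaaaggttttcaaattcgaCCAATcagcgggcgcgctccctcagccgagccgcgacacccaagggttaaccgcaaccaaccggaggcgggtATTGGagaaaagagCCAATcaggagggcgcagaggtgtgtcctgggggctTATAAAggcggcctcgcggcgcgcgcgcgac
H2BC21: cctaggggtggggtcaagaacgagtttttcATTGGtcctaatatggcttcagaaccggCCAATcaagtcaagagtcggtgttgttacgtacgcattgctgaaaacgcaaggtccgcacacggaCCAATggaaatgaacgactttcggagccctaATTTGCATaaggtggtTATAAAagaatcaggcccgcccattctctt
H3C3 has 4 CCAAT matches and no TATAAA in this window. H2BC14 and H2BC21 have the octamer 48 and 46 bases before the start. H2AC14, H2AX and H2BC21 have TATAAA 31, 31 and 30 bases before it.

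Libraries held 6759850 and 2858835 reads with the CDH3-AS1 siRNA and 2034854 and 5994485 reads with the control, batch 1 before batch 2, the order kept below wherever both libraries of an siRNA are given. Levels are CPM, a gene's coding-sequence reads per 1000000 coding-sequence reads of the library, and 3 reads, the least counted as detected, are 0.473 and 1.15 CPM with the CDH3-AS1 siRNA and 1.63 and 0.533 CPM with the control. The batch 1 control library stood apart. Of 13 skeletal muscle markers, 11 were in the tables, and they summed to 10.6 and 3.83 CPM with the CDH3-AS1 siRNA and to 4096 and 6.57 CPM with the control, with TNNT3 and MYLPF at 0 throughout or not listed. Fibroblast markers, 5 of 6 in the tables, summed to 4.88 and 1.92 CPM against 492 and 0.533 CPM, with COL3A1 at 0 or not listed. Keratinocyte markers, 4 of 6 in the tables, summed to 8.03 and 35.6 CPM against 8.68 and 30.6 CPM, and blood cell markers, 1 of 4, to 0 and 0 CPM against 35.8 and 0 CPM. All 7 melanocyte markers had reads in every library, and summed to 21447 and 31493 CPM against 23085 and 39741 CPM. The part of these signals in the histone values was not tested. Class medians between the siRNAs and between the batches, and histone calls between the siRNAs, are also given without that library. Calls between the batches, and medians between the batches of the 3′ UTR groups and of the gene lists, are given only with it. CDH3-AS1 is noncoding and its level was not analysed here. CDH3, the gene it lies opposite, had 179 and 192 CPM with the CDH3-AS1 siRNA, against 293 and 322 CPM with the control. That log2 fold change of -0.68 ± 0.32 (SE, edgeR) had an unadjusted p of 0.0679 and was not called.

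Histone genes took 1.17% (95% Clopper-Pearson interval 1.16 to 1.18%) and 1.43% (1.42 to 1.45%) of coding-sequence reads in the CDH3-AS1 siRNA libraries. In the control libraries they took 1.79% (1.77 to 1.81%) and 1.04% (1.03 to 1.05%). The CDH3-AS1 siRNA library was thus the lower one in batch 1 and the higher one in batch 2, and the siRNA groups overlapped. The 2 shallower libraries, batch 1 control and batch 2 CDH3-AS1 siRNA, had the higher shares, and the part of depth was not tested. Intervals cover counting error only, and fewer cells in S phase and less histone message or translation per cell cannot be told apart in such bulk libraries.

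**Figure D1:**
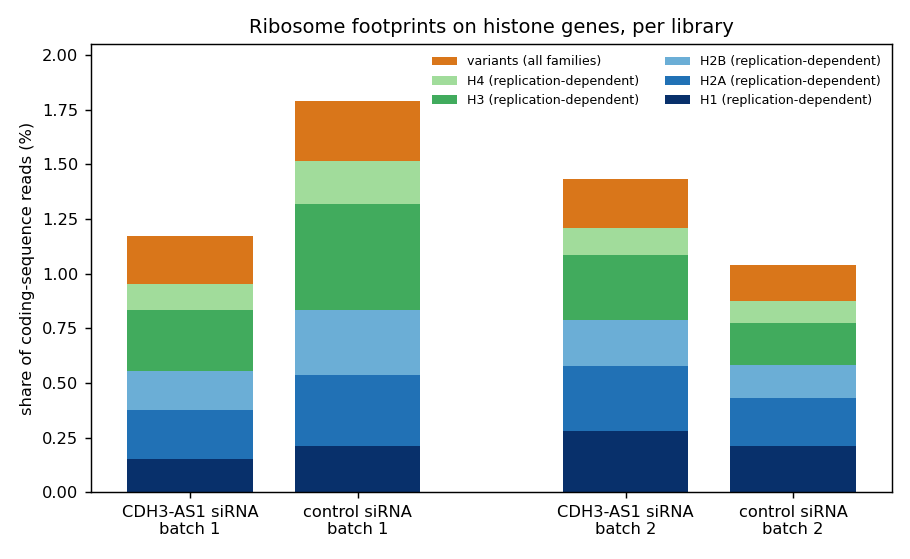
Share of all coding-sequence reads on histone genes (%, bars from 0) in each library, divided into the replication-dependent families and the variants of all families. The CDH3-AS1 siRNA library stood at 1.17% in batch 1, below its control at 1.79%, and at 1.43% in batch 2, above its control at 1.04%.

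Most of these footprints were on the replication-dependent genes, which took 81.3% and 84.4% of histone reads with the CDH3-AS1 siRNA and 84.7% and 83.9% with the control. Each 95% interval for counting error was under 1 percentage point wide. The batch 1 CDH3-AS1 siRNA library was the lowest, below the other 3 and their intervals. This order rested on the most-read genes. Without the 2 most-read of each class, that library stood at 90.9%, above both batch 2 libraries, at 89.8% with the CDH3-AS1 siRNA and 89.0% with the control. With 2 libraries against 2, the smallest two-sided p that an exact permutation test can give is 0.33, so no test of the shares was made.

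Within a batch, replication-dependent and variant genes stood on the same side. The summed replication-dependent level with the CDH3-AS1 siRNA was 9529 CPM against 15143 CPM with the control in batch 1, a ratio of 0.629. In batch 2 it was 12106 CPM against 8735 CPM, a ratio of 1.39. The variants summed to 2195 CPM with the CDH3-AS1 siRNA against 2728 CPM with the control in batch 1, a ratio of 0.805. In batch 2 they summed to 2234 CPM against 1677 CPM, a ratio of 1.33. The replication-dependent ratio was thus farther from 1 than the variant ratio in batch 1, while the 2 ratios lay close together in batch 2, with 1 library a side and no replicate check. The variant sums rest on few genes and were not taken without the most-read of them. The contrast of sums in batch 1 may therefore not hold over the variants as a class.

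All 5 replication-dependent families followed that course. The ratio of summed CPM, CDH3-AS1 siRNA over control, was 0.728 in batch 1 and 1.32 in batch 2 for H1, and 0.681 and 1.34 for H2A. It was 0.601 and 1.40 for H2B, 0.580 and 1.54 for H3, and 0.603 and 1.30 for H4. H3 was the farthest from 1 and H2B the next in both batches, while the nearest to 1 was H1 in batch 1 and H4 in batch 2.

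Across single genes, no histone gene passed the threshold between the siRNAs in the quasi-likelihood test of edgeR on coding-sequence counts (adjusted p under 0.05, Benjamini-Hochberg over all 10469 genes tested). Of the 70 members, 64 passed the filter on low counts, 55 replication-dependent and 9 variant, and 0 were called. On simulated counts this fit recovered 0 changed genes, at up to 3-fold higher or 4-fold lower. The lack of calls thus cannot show that no histone gene changed. Of all genes tested, 0% were called, 225 (2.15%) had an unadjusted p under 0.05, and none of those was a histone gene. With the batch as a block, 0 histone genes and 170 genes (1.62%) were called, 97 higher (0.927%) and 73 lower (0.697%). The blocked fit gave 4 histone genes an unadjusted p under 0.05, H2AC13, H4C13, H2AZ2 and H3-3B, against 9.79% of all genes, with adjusted p of 0.329, 0.391, 0.176 and 0.135. The median log2 fold change was -0.19 over the replication-dependent genes and 0.11 over the variants, against -0.03 over all genes, and -0.10 and 0.03 with the block.

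These medians stood between opposite differences in the 2 batches. On CPM after TMM scaling, edgeR's correction for library composition, the median log2 difference in batch 1, CDH3-AS1 siRNA minus control, was -0.69 over the replication-dependent genes and -0.39 over the variants, against 0.01 over all genes. In batch 2 it was 0.45 and 0.46, against -0.03 over all genes. The CDH3-AS1 siRNA library was the lower of the pair for 62 of 64 histone genes in batch 1, where 49.1% of all genes were. It was the higher for 58 of 64 in batch 2, where 47.7% of all genes were. The 6 exceptions there were H2AC20, H2AZ2, H2BC15, H2BC5, H3-3B and H4C13. Lower in batch 1 and higher in batch 2 were 56 of 64 histone genes (87.5%), 51 of 55 replication-dependent genes and 5 of 9 variants, against 21.2% of all genes. Higher in both batches were 2 of 64, against 26.5% of all genes, and lower in both were the 6 named as exceptions in batch 2, against 27.8%. Each batch has 1 library a side, so this is a description of 2 pairs of libraries and no test of a difference between batches.

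**Figure D2:**
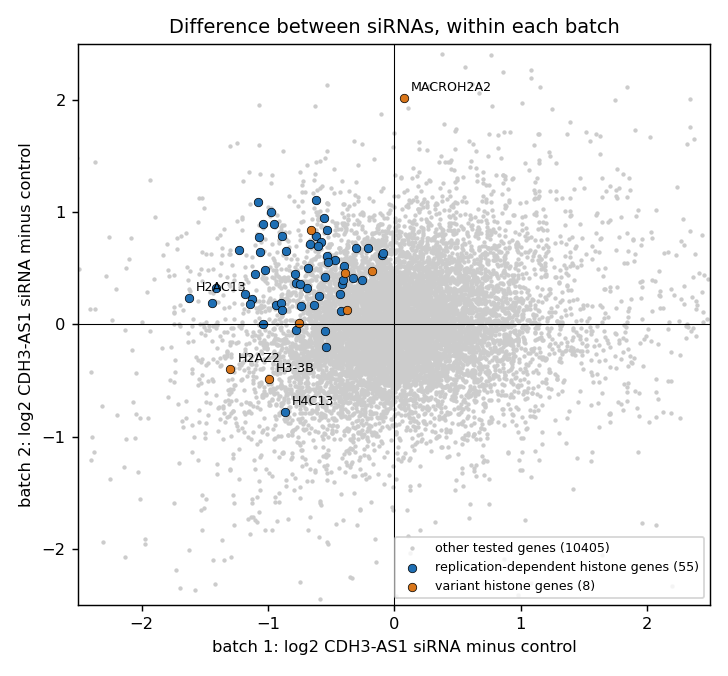
Log2 difference between the CDH3-AS1 siRNA library and the control library in batch 1 (horizontal) and batch 2 (vertical), both after TMM scaling, for 63 histone genes and the other tested genes, 116 of which lie outside the axes. Most histone genes lie at the upper left, around the replication-dependent medians of -0.69 in batch 1 and 0.45 in batch 2, while H4C13, H2AZ2 and H3-3B lie at the lower left.

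The coding sequences of core histones are short, so other genes of like length were set beside them. The 539 other tested genes with coding sequences over 300 and up to 450 bases had median log2 differences of -0.10 in batch 1 and -0.09 in batch 2. By place, the 49 tested members of the chromosome 6 cluster had medians of -0.68 and 0.45, the 5 of the chromosome 1 cluster -0.78 and 0.37, and the 10 on other chromosomes -0.50 and 0.47. The 3 medians were thus on the same side in each batch.

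The median between the siRNAs turned with single libraries. Over the replication-dependent genes it was 0.25 without the batch 1 control library and -0.46 without the batch 2 control library. Without the batch 1 or the batch 2 CDH3-AS1 siRNA library it was 0.04 or -0.45. Over the variants it was 0.14 and -0.24 without those control libraries, and -0.01 and -0.44 without the CDH3-AS1 siRNA libraries. No histone gene was called in any of these fits.

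Levels per gene are given next by family, from H1 outwards, for 60 members averaging at least 20 CPM. Linker histones bind the DNA entering and leaving the core. H1-4 stood at 816 and 1336 CPM in CDH3-AS1 siRNA cells and at 893 and 902 CPM in control cells. H1-3 had 134 and 281 CPM with the CDH3-AS1 siRNA, against 199.7 and 217 CPM with the control. H1-5 stood at 206 and 446 CPM in CDH3-AS1 siRNA cells and at 461 and 395 CPM in control cells. The batch 1 CDH3-AS1 siRNA library was the lowest for these 3 linker histone genes, and the siRNA groups overlapped. H1-1 had 38.8 and 66.3 CPM with the CDH3-AS1 siRNA, against 84.1 and 32 CPM with the control. H1-1 was highest in the batch 1 control and lowest in the batch 2 control, and per length it was the least occupied of the 5, at a mean of 78.4 RPKM (reads per kilobase of coding sequence and per 1000000 reads of the library), against 1379.5 RPKM for H1-4.

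H2A forms dimers with H2B at the faces of the core. H2AC6 stood at 458 and 477 CPM in CDH3-AS1 siRNA cells and at 648 and 332 CPM in control cells. H2AC16 had 413 and 453 CPM with the CDH3-AS1 siRNA, against 488 and 293 CPM with the control. H2AC17 stood at 278 and 368 CPM in CDH3-AS1 siRNA cells and at 451 and 232 CPM in control cells. These H2A genes had the highest mean densities of their family, 1122, 965 and 778 RPKM. H2AC4 had 99.2 and 112 CPM with the CDH3-AS1 siRNA, against 136 and 89.7 CPM with the control. H2AC12 stood at 91.7 and 121 CPM in CDH3-AS1 siRNA cells and at 136 and 81.6 CPM in control cells. H2AC15 had 43.8 and 54.4 CPM with the CDH3-AS1 siRNA, against 65.1 and 31.3 CPM with the control. All 6 were highest in the batch 1 control and lowest in the batch 2 control, so that the control values enclosed the CDH3-AS1 siRNA values. H2AC11 stood at 201 and 264 CPM in CDH3-AS1 siRNA cells and at 344 and 244 CPM in control cells. H2AC21 had 70.4 and 94.6 CPM with the CDH3-AS1 siRNA, against 124 and 75.7 CPM with the control. H2AC13 stood at 34 and 69.4 CPM in CDH3-AS1 siRNA cells and at 109 and 60.9 CPM in control cells. For these the batch 1 control was again the highest, but the lowest library was the batch 1 CDH3-AS1 siRNA library. H2AC8 had 209.7 and 394 CPM with the CDH3-AS1 siRNA, against 309.9 and 278 CPM with the control. H2AC7 stood at 225 and 295 CPM in CDH3-AS1 siRNA cells and at 289 and 229 CPM in control cells. For H2AC8 and H2AC7 the batch 2 CDH3-AS1 siRNA library was the highest, and the siRNA groups overlapped for every H2A gene given here.

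H2B is the family with the octamer in most of its promoters. H2BC11 had 231 and 286 CPM with the CDH3-AS1 siRNA, against 364 and 172 CPM with the control. H2BC17 stood at 184 and 274 CPM in CDH3-AS1 siRNA cells and at 389 and 153 CPM in control cells. H2BC9 had 199 and 246 CPM with the CDH3-AS1 siRNA, against 369.6 and 161 CPM with the control. The control libraries enclosed both CDH3-AS1 siRNA libraries for these, from the batch 1 control at the top to the batch 2 control at the bottom. H2BC6 stood at 83.8 and 119 CPM in CDH3-AS1 siRNA cells and at 169 and 61.3 CPM in control cells. H2BC12 had 21.3 and 25.7 CPM with the CDH3-AS1 siRNA, against 58.6 and 21.1 CPM with the control. The same order held for H2BC6 and H2BC12. H2BC4 stood at 62.7 and 95.4 CPM in CDH3-AS1 siRNA cells and at 123 and 87.4 CPM in control cells. H2BC3 had 63.8 and 97.7 CPM with the CDH3-AS1 siRNA, against 133 and 72 CPM with the control. H2BC14 stood at 69 and 88.1 CPM in CDH3-AS1 siRNA cells and at 107 and 76.6 CPM in control cells. In these 3 the batch 1 control was the highest and the batch 1 CDH3-AS1 siRNA library the lowest. H2BC8 had 144 and 184 CPM with the CDH3-AS1 siRNA, against 176 and 145 CPM with the control. H2BC7 stood at 78 and 106 CPM in CDH3-AS1 siRNA cells and at 105 and 76.6 CPM in control cells. H2BC8 and H2BC7 were highest in the batch 2 CDH3-AS1 siRNA library. H2BC10 had 32.4 and 65.1 CPM with the CDH3-AS1 siRNA, against 68.9 and 67.3 CPM with the control. H2BC15 stood at 65.2 and 102 CPM in CDH3-AS1 siRNA cells and at 97.7 and 109 CPM in control cells. The siRNA groups did not overlap for H2BC10 on the CPM scale, but did after TMM scaling, and H2BC15 was higher in both batch 2 libraries than in either batch 1 library.

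H3 carries many of the modifications read by chromatin proteins. H3C7 had 353 and 449 CPM with the CDH3-AS1 siRNA, against 540.0 and 279.8 CPM with the control. H3C8 stood at 149 and 169.7 CPM in CDH3-AS1 siRNA cells and at 328 and 128 CPM in control cells. H3C4 had 107 and 112 CPM with the CDH3-AS1 siRNA, against 241 and 102 CPM with the control. Again the batch 1 control was the highest and the batch 2 control the lowest. H3C11 stood at 153 and 219 CPM in CDH3-AS1 siRNA cells and at 207 and 172 CPM in control cells. H3C6 had 57 and 78.2 CPM with the CDH3-AS1 siRNA, against 94.4 and 64.7 CPM with the control. H3C11 was highest in the batch 2 CDH3-AS1 siRNA library and H3C6 in the batch 1 control, and the siRNA groups overlapped for all 5.

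H4 pairs with H3 at the centre of the core, and the replication-dependent H4 genes given here make the same or nearly the same protein. H4C9 stood at 197 and 220.3 CPM in CDH3-AS1 siRNA cells and at 325 and 160.4 CPM in control cells. H4C1 had 73.2 and 87.4 CPM with the CDH3-AS1 siRNA, against 158 and 52.4 CPM with the control. H4C6 stood at 41.7 and 40.6 CPM in CDH3-AS1 siRNA cells and at 66.8 and 37.3 CPM in control cells. The batch 1 control was the highest and the batch 2 control the lowest for these. H4C8 had 141 and 198 CPM with the CDH3-AS1 siRNA, against 242 and 159.7 CPM with the control. H4C5 stood at 137 and 195 CPM in CDH3-AS1 siRNA cells and at 241 and 147 CPM in control cells. H4C2 had 103 and 122 CPM with the CDH3-AS1 siRNA, against 196 and 115 CPM with the control. In these and in H4C4 the lowest library was the batch 1 CDH3-AS1 siRNA library. H4C4 stood at 47.3 and 107 CPM in CDH3-AS1 siRNA cells and at 110.2 and 91.5 CPM in control cells. H4C13 had 12.3 and 16.5 CPM with the CDH3-AS1 siRNA, against 23.3 and 29.7 CPM with the control. H4C13 was the one H4 gene given here that was lower in both CDH3-AS1 siRNA libraries than in both control libraries. Its log2 fold change between the siRNAs, the largest among the replication-dependent genes, was -0.84 ± 0.40 (SE) and was not called.

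**Figure D3:**
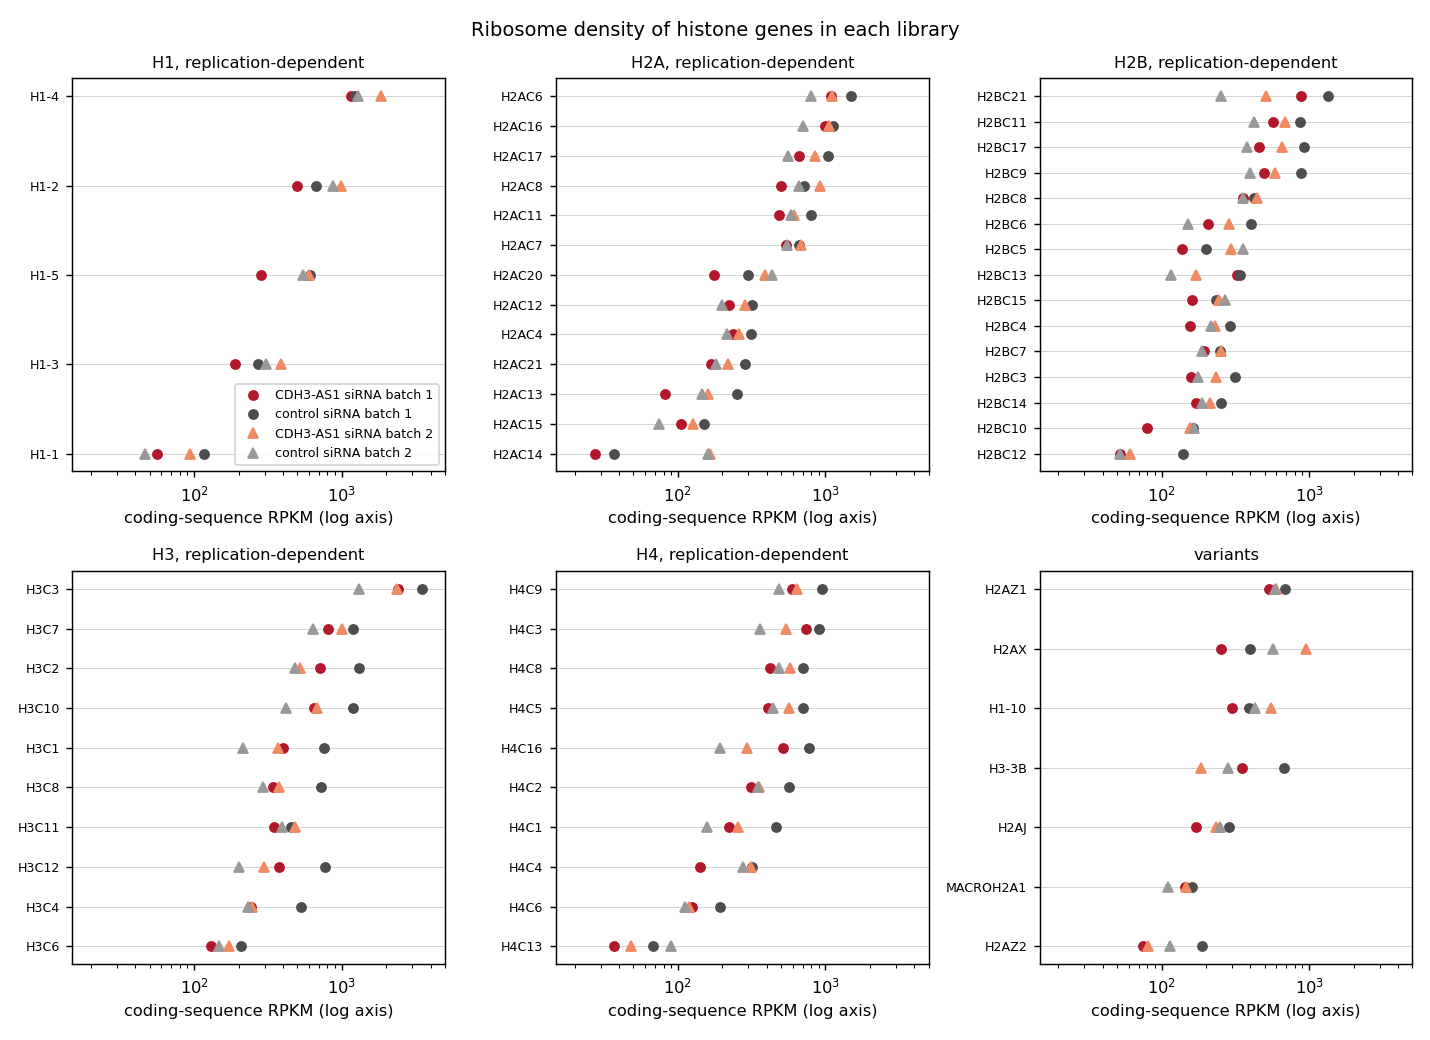
Ribosome density (coding-sequence RPKM, log axis) of 60 histone genes with a mean of at least 20 CPM, by family, with 1 point per library. In most rows the batch 1 control lies at the right, and in many the batch 2 control lies at the left with both CDH3-AS1 siRNA libraries between them, while rows such as H2AC14, H2BC5 and H2AX split by batch.

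Among the variants the directions were less uniform. H1-10 stood at 255 and 482 CPM in CDH3-AS1 siRNA cells and at 344 and 364 CPM in control cells. H1-10, a linker histone made through the cell cycle, was highest in the batch 2 CDH3-AS1 siRNA library and lowest in its batch 1 counterpart. H2AZ1 had 222 and 254 CPM with the CDH3-AS1 siRNA, against 295 and 240.4 CPM with the control. H2AZ2 stood at 29.9 and 33.3 CPM in CDH3-AS1 siRNA cells and at 76 and 45.7 CPM in control cells. H2AZ1 and H2AZ2 encode nearly identical forms of H2A.Z, found at promoters. The siRNA groups overlapped for H2AZ1 and did not for H2AZ2, which was lower in both CDH3-AS1 siRNA libraries, at a log2 fold change of -0.88 ± 0.38 (SE) that was not called. H2AJ had 71 and 100.4 CPM with the CDH3-AS1 siRNA, against 123 and 103 CPM with the control. MACROH2A1 stood at 171 and 178 CPM in CDH3-AS1 siRNA cells and at 198 and 132 CPM in control cells. H2AJ is an H2A variant linked to senescence in human fibroblasts, and MACROH2A1 encodes a histone with a large added domain. MACROH2A1 overlapped between the siRNAs, while H2AJ did so only after TMM scaling. MACROH2A2 had 3.94 and 4.21 CPM with the CDH3-AS1 siRNA, against 3.8 and 0.711 CPM with the control. MACROH2A2 was higher in both CDH3-AS1 siRNA libraries, near the detection limit, at a log2 fold change of 0.94 ± 0.77 (SE) that was not called. With the batch as a block, limma on log2(RPKM + 1) called it at a log2 fold change of 2.06 (adjusted p 0.0207), while edgeR with the block gave 0.99 and an adjusted p of 0.715. After TMM scaling the groups did not overlap for 3 of 64 histone genes, MACROH2A2 higher and H4C13 and H2AZ2 lower, against 13.3% of all genes higher and 14.1% lower.

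The largest differences among replication-dependent genes after H4C13 were in H2BC12 and H2AC13, whose log2 fold changes of -0.69 ± 0.52 and -0.66 ± 0.48 (SE) were not called. Their values in each library, above, overlapped between the siRNAs. H2BC12 differed by -1.41 in batch 1 and 0.32 in batch 2 on the log2 scale, and H2AC13 by -1.63 and 0.24. H3-3B stood at 149 and 81.2 CPM in CDH3-AS1 siRNA cells and at 304 and 118 CPM in control cells. H3-3B, which encodes the replacement histone H3.3, was thus highest in the batch 1 control and lowest in the batch 2 CDH3-AS1 siRNA library. It differed by -0.99 and -0.49 within the batches, and was the third largest among the variants with a log2 fold change of -0.82 ± 0.53 (SE) that was not called. Without the batch 1 control library the fold changes of H2BC12 and H3-3B were 0.20 and 0.032.

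The 2 tested replication-dependent genes averaging under 20 CPM ranged from 7.09 to 33.1 CPM. The 6 members that failed the filter were at 0 to 1.92 CPM, and H3-3A and H2BC1, named after their values were seen, had 0 coding-sequence reads in every library. Histone genes of 1 family are so alike that a footprint can fit several, and how such reads were assigned is not given in the sources used here, so values of single genes are uncertain. The RefSeq spans of H3C4 and H2AC7, and of H2BC12 and H4C9, overlap, and whether counting used strand is not given either.

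Replication-dependent messages have short untranslated ends, and their reads lay almost wholly in the coding sequence. With the CDH3-AS1 siRNA 99.0% and 99.1% of their reads were there, and with the control 99.1% and 98.9%. For the variants, 11.4% and 13.2% of reads lay in the 5′ UTR with the CDH3-AS1 siRNA, against 15.5% and 7.53% with the control. Over all genes these shares were 3.81% and 7.09%, against 5.98% and 5.08%. The variants' share was thus higher in the control in batch 1 and lower in the control in batch 2, as was the share over all genes. Few genes supplied most of the variants' 5′ UTR reads. The share was not taken without them, so it need not be a trait of the class.

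Between the batches, 16 of 64 histone genes were called by the same test with the siRNA as a covariate, 5 higher and 11 lower in batch 2. Over all genes 15.8% were called, 9.52% higher and 6.3% lower. An unadjusted p under 0.05 was found for 22 of 64, against 28.1% of all genes. Replication-dependent genes gave 4 higher and 9 lower calls of 55, and variants 1 higher and 2 lower of 9. Medians were -0.18 and -0.23, against 0.01 over all genes. Within the CDH3-AS1 siRNA pair of libraries the medians were 0.43 over the replication-dependent genes and 0.19 over the variants, and within the control pair -0.75 and -0.56. Both pairs were higher for 10 of 64 histone genes and lower for 10, against 36.1% and 34.1% of all genes. The batches did not overlap for 9 that were higher and 10 that were lower, against 28.7% and 25.7%.

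The higher genes came from H1, H2A and H2B. H2AC14 had 69.7 CPM with the CDH3-AS1 siRNA and 66.3 CPM with the control in batch 2, against 11.3 and 15.7 CPM in batch 1. H2AC14 was higher in both batch 2 libraries, with a log2 fold change of 2.36 ± 0.34 (SE, adjusted p 3.25e-10, edgeR), the farthest from 0 of the histone genes. H2BC14, with which it shares the promoter stretch printed above, had a log2 fold change of -0.03 ± 0.28 (SE). H2AX had 449.8 CPM with the CDH3-AS1 siRNA and 260.5 CPM with the control in batch 2, against 117 and 189 CPM in batch 1. H2AX, which is phosphorylated beside DNA breaks and can be made from both kinds of message, was higher by 1.23 ± 0.25 (log2, SE, adjusted p 4.11e-05, edgeR). H2BC5 had 122 CPM with the CDH3-AS1 siRNA and 146 CPM with the control in batch 2, against 55.9 and 83.6 CPM in batch 1. H2AC20 had 167 CPM with the CDH3-AS1 siRNA and 179 CPM with the control in batch 2, against 73.4 and 129 CPM in batch 1. H1-2 had 696 CPM with the CDH3-AS1 siRNA and 596 CPM with the control in batch 2, against 342 and 474 CPM in batch 1. For all 3 both batch 2 libraries lay above both batch 1 libraries, with log2 fold changes of 0.99 for H2BC5, 0.86 for H2AC20 and 0.70 for H1-2 (SE 0.23 to 0.27, adjusted p 0.00375, 0.0118 and 0.0196, edgeR). H2AC20 and H1-2 were not past the threshold with DESeq2 (adjusted p 0.0804 and 0.107), nor was H1-2 with limma (0.0943).

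Among the lower genes was the H3.3 gene H3-3B. H3-3B had 81.2 CPM with the CDH3-AS1 siRNA and 118 CPM with the control in batch 2, against 149 and 304 CPM in batch 1. Both batch 2 libraries lay below both batch 1 libraries, with a log2 fold change of -1.09 ± 0.26 (SE, adjusted p 0.00052, edgeR). H2BC21 had 213 CPM with the CDH3-AS1 siRNA and 102 CPM with the control in batch 2, against 356 and 561 CPM in batch 1. H2BC21, a gene of the chromosome 1 cluster that can also make a polyadenylated message, had the lowest log2 fold change, -1.57 ± 0.25 (SE, adjusted p 4.79e-08, edgeR). It was -0.70 in the CDH3-AS1 siRNA pair and -2.44 in the control pair, and DESeq2 gave an adjusted p of 0.224. H4C16 had 100.0 CPM with the CDH3-AS1 siRNA and 63.8 CPM with the control in batch 2, against 171 and 267 CPM in batch 1. H2BC13 had 70.9 CPM with the CDH3-AS1 siRNA and 47.1 CPM with the control in batch 2, against 131 and 143 CPM in batch 1. H4C16, an H4 gene on chromosome 12, and H2BC13 were lower in both pairs, by log2 fold changes of -1.39 ± 0.27 and -1.21 ± 0.27 (SE, adjusted p 8.82e-06 and 0.000251, edgeR).

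H3 gave 5 of the lower calls among its 11 tested genes. H3C12 had 133 CPM with the CDH3-AS1 siRNA and 88.1 CPM with the control in batch 2, against 164 and 351 CPM in batch 1. H3C1 had 167 CPM with the CDH3-AS1 siRNA and 93.3 CPM with the control in batch 2, against 175 and 346 CPM in batch 1. H3C2 had 234 CPM with the CDH3-AS1 siRNA and 212 CPM with the control in batch 2, against 312 and 596 CPM in batch 1. These 3 were lower in both batch 2 libraries, with log2 fold changes of -1.12, -0.94 and -0.93 (SE 0.24 to 0.26, adjusted p 0.000466, 0.00446 and 0.00211, edgeR). The difference was small in the CDH3-AS1 siRNA pair, at -0.27, -0.03 and -0.38, and -1.97, -1.87 and -1.47 in the control pair. H3C3 had 1066 CPM with the CDH3-AS1 siRNA and 571 CPM with the control in batch 2, against 1059.8 and 1596 CPM in batch 1. H3C10 had 305 CPM with the CDH3-AS1 siRNA and 183 CPM with the control in batch 2, against 286 and 544 CPM in batch 1. For H3C3, whose promoter is printed above, and H3C10 the pairs were opposed. Both had a log2 fold change of -0.71 (adjusted p 0.0136 and 0.031, edgeR), made of 0.044 and 0.13 in the CDH3-AS1 siRNA pair and -1.46 and -1.55 in the control pair. Limma gave them adjusted p of 0.129 and 0.108, and DESeq2 0.614 and 0.654, as well as 0.56 for H3C1. H4C3 had 186 CPM with the CDH3-AS1 siRNA and 119.6 CPM with the control in batch 2, against 246 and 310.5 CPM in batch 1. H4C3 was lower in both batch 2 libraries, at -0.86 ± 0.25 (log2, SE, adjusted p 0.00773, edgeR), with an adjusted p of 0.0594 by DESeq2.

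**Figure D4:**
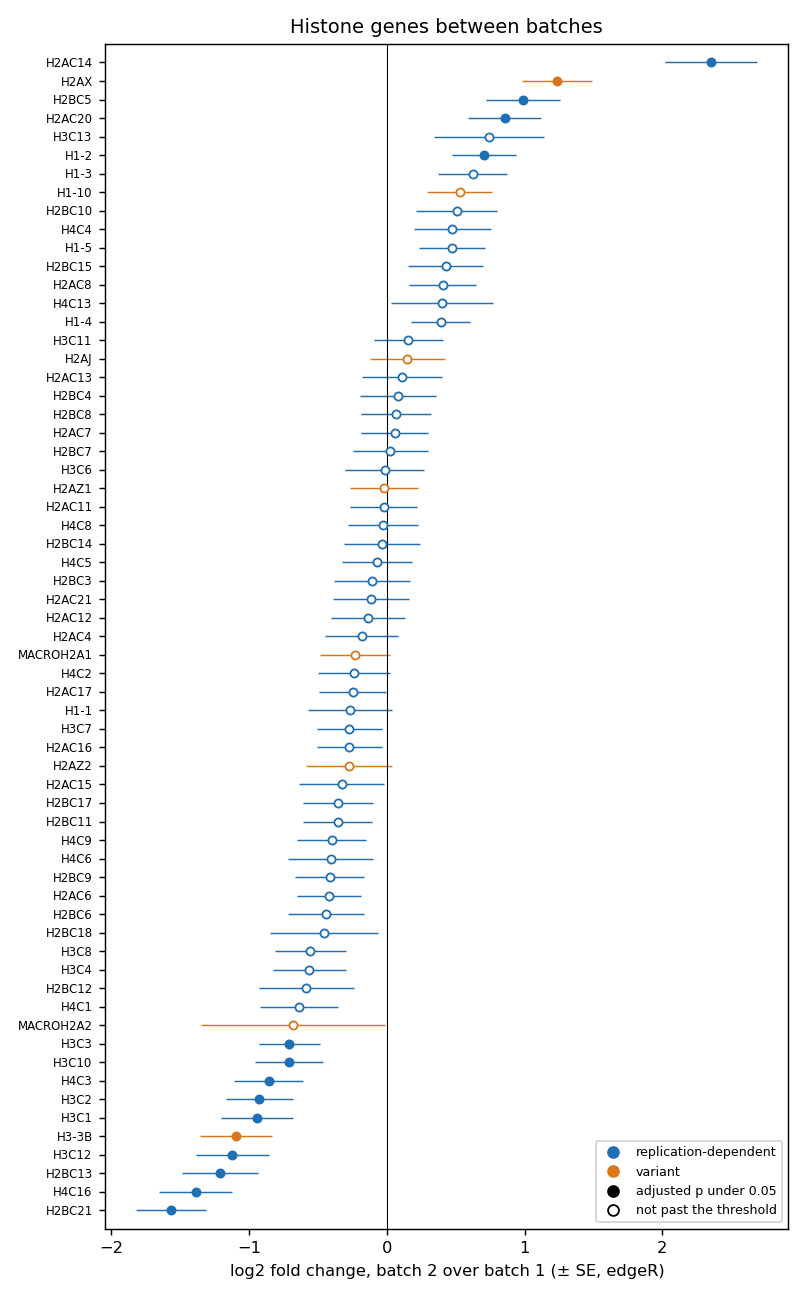
Log2 fold change, batch 2 over batch 1, of 63 tested histone genes (points, bars ± SE, edgeR with the siRNA as covariate), with filled points past an adjusted p of 0.05. H2AC14 and H2AX lie at the top at 2.36 and 1.23, and H4C16 and H2BC21 at the bottom at -1.39 and -1.57.

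The families differed in their medians. The replication-dependent H1 genes had a median log2 fold change of 0.47 between batches, with 1 of 5 called higher, and the H3 genes -0.56, with 0 higher and 5 of 11 lower. H2A, H2B and H4 lay between at -0.11, -0.23 and -0.32. The H3 median joined 0.13 in the CDH3-AS1 siRNA pair and -1.33 in the control pair, which holds the batch 1 control library. For H1 the pairs had 1.06 and 0.03. In density summed per length, H1 over H3 was 0.597 and 0.698 in the batch 2 libraries (CDH3-AS1 siRNA and control), against 0.340 and 0.270 in batch 1, so the batches did not overlap. H3 over H4 was 1.76 and 1.49 in batch 2, against 1.83 and 1.90 in batch 1. By message, the 15 tested members with a 3′ UTR over 400 bases in the deposited tables had 4 lower calls, among them H2BC21, H4C16 and H3-3B, and 1 higher, H2AX, with a median of -0.36. The other 49 had 7 lower and 4 higher, with a median of -0.11. Over all genes 9.52% were called higher and 6.3% lower.

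Genes that act on histones or on the cell cycle were read from 5 lists. No gene of any list was called between the siRNAs without the block. The message processing list holds genes that trim, bind or degrade histone messages, and also the transcription regulators NPAT, HINFP and POU2F1. With 18 of 20 genes tested, it had median log2 differences of -0.09 in batch 1 and -0.09 in batch 2. SNRPB, a core protein of spliceosomal and U7 particles, had 401 and 303 CPM with the CDH3-AS1 siRNA, against 502 and 184 CPM with the control. UPF1, a helicase needed to degrade histone messages, had 311 and 214 CPM against 225 and 132 CPM. Chaperones that carry histones to DNA, 19 of 23 tested, had medians of -0.01 in both batches. Of the FACT complex, SSRP1 had 255 and 238 CPM with the CDH3-AS1 siRNA, against 343 and 267 CPM with the control, and SUPT16H 131 and 187 CPM, against 103 and 200.4 CPM. In both batches these medians were nearer to 0 than those of the histone genes.

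Genes of DNA replication, 38 of 40 tested, had medians of -0.06 in batch 1 and 0.06 in batch 2, and 11 of 38 were lower in batch 1 and higher in batch 2, against 21.2% of all genes. That pattern held for 10 of 25 mitosis genes, 5 of 17 growth arrest genes, 4 of 18 message processing genes and 4 of 19 chaperone genes. MCM6, a subunit of the replicative helicase, had 50.4 and 55.2 CPM with the CDH3-AS1 siRNA, against 101 and 146 CPM with the control. It was the only list member called with the block, lower at a log2 fold change of -1.16 ± 0.28 (SE, adjusted p 0.00405, edgeR), and was not called without it. Mitosis genes, 25 of 26 tested, had medians of -0.0049 and 0.12. The growth arrest list, which holds CCND1, CCND2 and CCND3 beside inhibitors of the cell cycle, had a median of 0.13 in either batch, with 17 of 20 genes tested. CCND1, which drives entry into S phase, had 2776 and 2294 CPM with the CDH3-AS1 siRNA, against 2408 and 2513 CPM with the control. CDKN1A, an inhibitor of the cell cycle, had 643 and 409 CPM against 578 and 288 CPM.

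Between the batches, mitosis genes gave 9 higher and 1 lower call of 25, with a median log2 fold change of 0.57. CENPF, a kinetochore protein, had 635 and 715 CPM in batch 2 (CDH3-AS1 siRNA and control), against 233 and 217 CPM in batch 1. TOP2A, which untangles DNA, had 337 and 361 CPM against 176 and 171 CPM. Replication genes gave 4 higher and 0 lower of 38, with a median of 0.05. Message processing gave 3 higher and 1 lower of 18, chaperones 5 higher and 1 lower of 19, and growth arrest 1 higher and 4 lower of 17. These counts stand beside 9.52% higher and 6.3% lower of all genes. The median of the histone genes was -0.21, below that of each of the 5 lists. The lowest of those were -0.08 for message processing and growth arrest. The histone median joined opposed pairs, 0.43 in the CDH3-AS1 siRNA pair and -0.72 in the control pair, which holds the batch 1 control library. Medians of the lists were not taken within each pair, so this order was not checked there.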

How the data were processed

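Ribosome-protected fragments of 4 libraries were analysed, 2 per siRNA. Per the file headers, the authors deposited counts of reads in the 5′ UTR, coding sequence and 3′ UTR of each transcript, and RPKM of each region. Checked on the values, the authors' RPKM are scaled to all reads of the library. The submitters' processing notes name hg38 and DESeq2; for the aligner, the annotation, read filters and strand, the tool or setting is not given in the sources used here. Footprints without matched RNA give ribosome density, not translational efficiency.

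Coding-sequence counts were summed by gene name over transcripts, as were RPKM, and 57 of 70 members had 1 transcript. edgeR 4.0.16 (R 4.3.3) used TMM scaling, filterByExpr (minimum count 10, total 15), prior count 2 and glmQLFTest over all libraries, with Benjamini-Hochberg adjustment over 10469 genes and a threshold of 0.05. The batch contrast had the siRNA as covariate. Replicate numbers are the labelled batches, so same-numbered libraries are paired by the labels, and their deviations from the siRNA means correlated at 0.584. Alternatives were DESeq2 1.42.0, limma 3.58.1 on log2(RPKM + 1) and log2(RPKM + 0.1), other filters, the transcript with the most reads, the block and leaving out each library. On simulated counts 200 genes were changed, by 1.5-fold or 3-fold upwards or by 2-fold or 4-fold downwards. Recovery by size and recovery by direction can therefore not be told apart. The fit without the block recovered 0 at each size. The blocked fit recovered 2%, 28%, 88% and 72% in that order, and the batch contrast 6%, 22%, 82% and 70%.

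Members and lists were chosen with earlier results of these data known. Named with values in every library are members with a mean of at least 20 CPM, those called, and the 3 largest changes per class and contrast. Of the lists, genes called with the block are named, or else the 2 with the most reads. H4C16, with the synonym H4-16, was counted as replication-dependent by its name. H2BU, H3C14, H3C15, H4C11, H4C12, H4C14, H4C15 and H2AC19 genes were not analysed here. The values of 1 member are not reported here, though counts, sums and medians include it.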

Additional observations from a re-analysis of the deposited data

Results flagged for a closer look

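These values were singled out because libraries of 1 pair moved one way and those of the other pair the opposite way. Each pair is 1 library against 1, and no difference between pairs was tested.

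Between the siRNAs (log2, CDH3-AS1 siRNA minus control), the summed histone level differed by -0.61 in batch 1 and 0.46 in batch 2. The median over histone genes was -0.67 and 0.45. It was -0.69 and 0.45 over replication-dependent genes, and -0.39 and 0.46 over variants. By family it was -0.55 and 0.42 for H1, -0.53 and 0.42 for H2A, -0.74 and 0.50 for H2B, -0.90 and 0.45 for H3, and -0.76 and 0.40 for H4. H2AC13 differed by -1.63 and 0.24, and H2BC12 by -1.41 and 0.32.

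Between the batches (log2, batch 2 minus batch 1), the median over histone genes was 0.43 in the CDH3-AS1 siRNA pair and -0.72 in the control pair. It was 0.43 and -0.75 over replication-dependent genes, and 0.19 and -0.56 over variants. By family it was 0.43 and -0.69 for H2A, 0.48 and -0.96 for H2B, 0.13 and -1.33 for H3, and 0.28 and -0.78 for H4. H3C10 differed by 0.13 and -1.55, and H3C3 by 0.044 and -1.46.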

How the results depend on the processing

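With 2 libraries a group, precision is limited by their number as well as by depth. Between the siRNAs, 0 histone genes were called under every alternative run except limma on log2(RPKM + 1) with the replicate block, which called 1, MACROH2A2, at a log2 fold change of 2.06. Over all genes the count of 0 became 2 with DESeq2 and 52 with no filter on low counts. With the replicate block, the paired fit, it was 170, and with that block also 127 at a minimum of 50 reads, 57 with DESeq2 and 90 with limma. Leaving out 1 library gave 0 to 73 calls, the highest without control siRNA replicate 2. Over those fits H2BC12 ranged from -1.24 to 0.20 and H3-3B from -1.33 to 0.032, the positive values being those without control siRNA replicate 1. The block changed no other call of a histone gene.

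Between the batches, histone calls numbered 9 with DESeq2 and 5 without the siRNA covariate, against 16, and calls over all genes 694 and 538, against 1657. Without the covariate the histone calls included H2AC14, H2BC13, H2BC21 and H4C16. Limma called 13 histone genes at either pseudocount, and no direction turned under these alternatives. Leaving out a library leaves 1 pair and no test. H3C10 ranged from -1.55 to 0.13 and H3C3 from -1.46 to 0.044, positive without either control library. Without those, the replication-dependent and variant medians were 0.43 and 0.19. Without either CDH3-AS1 siRNA library those medians were -0.75 and -0.56.

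The share of histone reads on replication-dependent genes was 78.9% and 82.3% with the CDH3-AS1 siRNA, against 82.1% and 82.7% with the control, over all reads of the transcripts. From the transcript with the most reads it was 82.0% and 84.8% with the CDH3-AS1 siRNA, against 85.9% and 84.7% with the control. Without the 2 most-read genes of each class it was 90.9% and 89.8%, against 91.4% and 89.0%. The batch 1 CDH3-AS1 siRNA library was then no longer the lowest, as it was under the other settings. The cause of these shifts was not tested beyond the construction of each alternative.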
